A study of Homo sapiens with 34 samples.

Results

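The 9 genes described here are known for their use in heart muscle, and were followed through the haematopoietic differentiation of H1, an established line of human embryonic stem cells. They were the 9 of 20255 genes of the expression table whose symbol was TNNT2, TNNI3, ACTC1, MYH6, MYH7, MYL7, NKX2-5, TBX5 or HAND2. The choice was made by name, with earlier results of these data known. Counts of called members beside the share of all genes therefore describe these 9 genes and are not independent evidence. Every one of the 9 was present once in the table and passed the filter on low values. RNA-seq had been done on 34 samples of 12 populations. One sample was undifferentiated H1 cells with no treatment. The others were 3 replicates each of D0 embryoid bodies (EBs, cell aggregates) labelled BMP4+hVEGF, of unsorted day 2 and day 4 cells labelled hVEGF, of CD43- and CD43+ cells sorted on days 6, 9 and 12, and of CD43-CD45- and CD43+/CD45+ cells sorted on day 16, all labelled hVEGF. The day 16 populations are called CD43- and CD43+ here. BMP4 and VEGF started mesoderm formation, VEGF was the only growth factor from day 3 on, and no haematopoietic cytokine was added to any culture. By the study's methods BMP4 and VEGF were both in the medium from the start of attachment, which defines D0, until it was replaced on day 2. The hVEGF label of day 2 and later cells thus leaves out the BMP4 given earlier. The 3 replicates were described as independent biological replicates of this one line. CD43 is a surface protein of early blood cells, so the CD43- fraction was defined only by what it lacked and is a mixture of cells.

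In heart muscle, force comes from the sarcomere, in which thick filaments of myosin pull on thin filaments of actin, and troponin on the thin filament makes the pull depend on calcium. Transcription factors such as NKX2-5, TBX5 and HAND2 act earlier, in the mesoderm from which the heart forms, and some of them also act in limb, gut or connective tissue. Cardiac and blood progenitors both come from mesoderm, and several sarcomere genes are also used outside the heart, so no single gene marks a heart muscle cell.

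The values were tag counts that had been normalised for GC content. All 34 samples held the same sorted set of values, with a median of 197, a highest value of 90700 and 1292 genes at 0. A value is therefore a scaled rank within its sample, sequencing depth is unknown, and the values of different genes cannot be compared per length. Fold changes are differences of log2(value + 1), given with their standard error (SE) and n = 3 per population, and they understate the change of low genes. A gene was called when limma's moderated test, adjusted over all 19788 genes tested by the Benjamini-Hochberg method, gave an adjusted p below 0.05 and the fold exceeded 4. In sorted bulk samples, fewer cells that express a gene and less of its RNA per cell cannot be told apart.

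The sort was checked with SPN, the gene of CD43, and PTPRC, the gene of CD45. SPN averaged 32, 23, 159 and 178 in CD43- cells of days 6, 9, 12 and 16, and 7183, 9203, 6127 and 2668 in the CD43+ cells of the same days. PTPRC averaged 27.3 in the CD43- and 12655 in the CD43+ cells of day 16. The markers of 2 other cell groups moved with the populations and are given here because they bear on what follows. The blood genes include SPN and PTPRC themselves, so their sum is not independent of the sort. The summed value of 8 blood genes was 99 to 162 in CD43- cells of day 6 and 219 to 325 on day 9, but 164, 1182 and 7218 in the 3 day 12 libraries and 6803 to 21037 on day 16, against 101073 or more in every CD43+ library. MPO was at 0 in all 3 CD43- libraries of day 6, and no blood gene of the list was at 0 in all libraries of a later CD43- population. The summed value of 11 mesenchymal and matrix genes was 203771 or more in every CD43- library, and in CD43+ libraries it was 60161, 74448 and 156258 on day 6, 4352, 8699 and 22153 on day 9, 21151 to 45886 on day 12 and 7458 to 15920 on day 16. None of the 11 was at 0 in all libraries of a CD43+ population. Both sums hold genes at the table's highest value, such as MPO and LYZ in CD43+ cells of days 12 and 16 and COL3A1 in CD43- cells of each day, and are limited by it.

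Several of the genes share sequence or place with other genes in ways that touch their values. MYH6 and MYH7, the alpha and beta heavy chains of cardiac myosin, lie next to each other on chromosome 14, and 14.8% of the 50-base stretches of MYH6 transcripts also occur in MYH7. The longest identical run of the transcripts is 395 bases, of which 390 lie within 1 coding exon of each gene, exon 26 of 39 in MYH6 and exon 27 of 40 in MYH7. The first 150 bases of that stretch (MYH6 chr14:23390297-23390446, MYH7 chr14:23420085-23420234, GRCh38, minus strand) are shown because a read that falls inside them matches both genes equally well.
MYH6 and MYH7, identical coding run: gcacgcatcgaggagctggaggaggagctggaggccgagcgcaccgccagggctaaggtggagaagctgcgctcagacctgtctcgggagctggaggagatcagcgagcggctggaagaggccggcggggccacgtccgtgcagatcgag
The counting method divides such reads between the genes by estimate, so the values of MYH6 and MYH7 are not independent and each is uncertain. For TNNI3, 37.7% of the 50-base stretches occur in AC010327.1, an overlapping gene on the same strand that was not analysed here. TNNT2 overlaps LAD1, a protein-coding gene on the same strand that is in the table, and 1.77% of its 50-base stretches occur there. HAND2 overlaps HAND2-AS1, an antisense gene that is in the table, and since use of strand in the counting is not stated, reads from the overlap of the pair cannot be told apart.

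RefSeq promoter windows (GRCh38.p14, 250 bases before the start) were found for 7 of the 9 genes, and not for MYH7 and NKX2-5. The first window of ACTC1 and that of MYL7 are shown because these genes had the most similar pattern of any pair among the 9, and that of HAND2 because it had another pattern. Capitals mark matches, on either strand, to the CArG box bound by serum response factor, to GATAA, and to TATAAA. The CArG box was searched as a pattern of 10 letters, some of them degenerate, and is given here by name alone. A MEF2 site was searched likewise and was not in these 3 windows but in 1 of the 10, a window of TBX5. No 2 matches overlap.
ACTC1 (chr15:34795550-34795799, minus strand): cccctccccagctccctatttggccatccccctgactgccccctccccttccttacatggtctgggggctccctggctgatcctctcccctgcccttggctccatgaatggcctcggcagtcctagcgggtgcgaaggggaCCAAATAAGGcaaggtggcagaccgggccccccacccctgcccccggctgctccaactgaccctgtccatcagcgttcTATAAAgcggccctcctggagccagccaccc
MYL7 (chr7:44141333-44141582, minus strand): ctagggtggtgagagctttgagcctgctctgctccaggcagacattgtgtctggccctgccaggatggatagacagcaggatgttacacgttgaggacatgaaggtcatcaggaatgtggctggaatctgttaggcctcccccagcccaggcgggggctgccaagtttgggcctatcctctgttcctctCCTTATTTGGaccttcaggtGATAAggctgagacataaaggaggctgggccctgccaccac
HAND2 (chr4:173530230-173530479, minus strand): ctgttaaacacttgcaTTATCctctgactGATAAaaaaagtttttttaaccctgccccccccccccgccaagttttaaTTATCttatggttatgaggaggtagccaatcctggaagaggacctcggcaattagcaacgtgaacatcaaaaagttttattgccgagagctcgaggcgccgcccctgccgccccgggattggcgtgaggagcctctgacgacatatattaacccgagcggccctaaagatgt
The first ACTC1 window holds 1 CArG box ending 99 bases before the start, and the MYL7 window holds 1 ending 51 bases before it. No CArG box was in the other 8 of the 10 windows of the 7 genes, which include 2 further windows of ACTC1, and CArG boxes were present in 1.16% of the 35116 windows of this length in the RefSeq table. GATAA was present once in the MYL7 window and 3 times in the HAND2 window, in 5 of the 10 windows and in 20.4% of all windows. TATAAA was present once in the first ACTC1 window, in 2 of the 10 windows and in 10.7% of all windows. The whole ACTC1 window lies inside the span that the deposited table gives for the gene, so the start differs between the annotations. These matches describe the letters only.

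From day 9 on most of the 9 genes were higher in CD43- than in CD43+ cells, while TNNI3 was called lower on days 6, 9 and 12 and MYH6 was never called. On day 6 limma placed 4 of the 9 higher in CD43- cells and 1 lower, beside 7.85% and 4.69% of all genes tested. On day 9 it placed 6 higher and 1 lower, beside 12.8% and 8.65%. On day 12 the members' counts were again 6 and 1, beside 14.4% and 11.8%, and on day 16 they were 7 and 0, beside 13.6% and 12.2%. ACTC1, TNNT2, MYL7 and HAND2 were called higher on all 4 days. The median log2 fold change of the 9 genes was 1.80, 4.32, 3.86 and 4.52 on the 4 days, and that of all genes tested was -0.14, -0.24, -0.21 and -0.14. The day 12 median was the value of TBX5 itself, whose CD43+ samples were all listed at 0 on days 12 and 16. Without TBX5 the median of the other 8 was 3.96 and 3.53 on those days. All 3 CD43- samples lay above all 3 CD43+ samples for 5, 7, 6 and 7 of the 9 genes on the 4 days, beside 22.9%, 28.7%, 26.4% and 32.7% of all genes, and below them for 1 of the 9 (TNNI3) on each day, beside 33.9%, 42.2%, 35.2% and 40.3%. No single library changed the count of 7 called on day 9 or day 12. With a pseudocount of 10 in place of 1 the counts were 3 higher and 1 lower on day 12 and 4 higher on day 16, and the calls lost were those of TBX5 on days 9, 12 and 16, NKX2-5 on days 12 and 16, MYL7 on day 12 and MYH7 on day 16. All genes called in either direction fell as well, from 4252 to 2731 on day 9, 5176 to 3528 on day 12 and 5101 to 3553 on day 16.

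**Figure D1:**
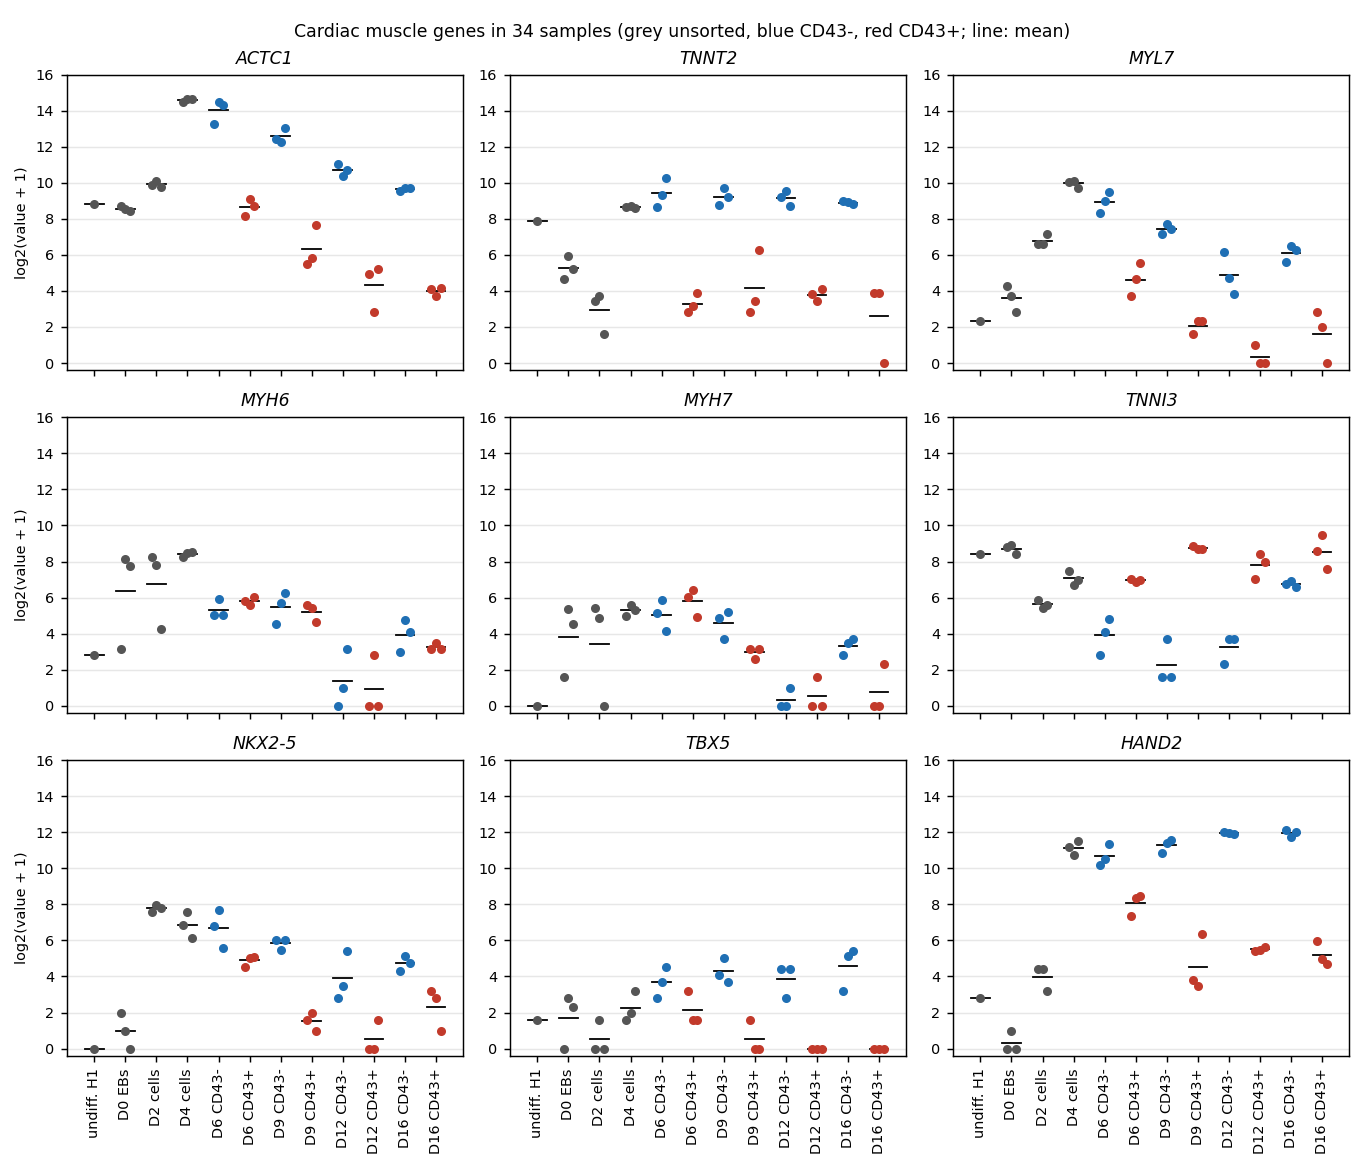
Value of each of the 9 genes, as log2(value + 1), in every sample of the 12 populations in order of time. Each point is 1 sample (grey unsorted, blue CD43-, red CD43+) and each line is a population mean of the log2 values; ACTC1, TNNT2, MYL7 and HAND2 are higher in every blue than in every red sample of the same day, and TNNI3 is lower.

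Cardiac alpha-actin, ACTC1 (ENSG00000159251, chr15:34788096-34796139, minus strand, as are all 9 genes), forms the thin filament. It was 454 in undifferentiated H1 cells, 416, 376 and 338 in D0 EBs and 945, 1078 and 865 on day 2. On day 4 it reached 22836, 25862 and 25862, a rise of 4.69 ± 0.46 (log2, SE) over day 2 with an adjusted p of 5.69e-09. The CD43- cells held 9896, 22836 and 20418 on day 6, 5483, 4900 and 8506 on day 9, 2077, 1314 and 1649 on day 12 and 756, 850 and 845 on day 16. The day 4 and day 6 CD43- samples overlapped, and from day 6 on every CD43- sample of one day was above every sample of the next. Between days 6 and 16 ACTC1 fell by 4.35 ± 0.46 on the log2 scale in CD43- cells (adjusted p = 1.39e-08). The CD43+ cells held 282, 546 and 422 on day 6, 44, 56 and 202 on day 9, 30, 6 and 36 on day 12 and 16, 12 and 17 on day 16. They fell as well, by 4.67 ± 0.46 between days 6 and 16 (adjusted p = 1.16e-09), so the CD43- excess was 5.37, 6.25, 6.37 and 5.69 on the 4 days, each with an SE of 0.46 and adjusted p of 3.65e-10 or less. Day 16 CD43- cells were thus below day 2 cells, with no overlap, and still above every CD43+ sample of the series.

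Cardiac troponin T, TNNT2 (ENSG00000118194, chr1:201359008-201377762), anchors the troponin complex to the thin filament. It was 234 in undifferentiated cells, 24, 60 and 36 in D0 EBs and 10, 12 and 2 on day 2. The fall from D0 to day 2 (-2.35 ± 0.78, adjusted p = 0.0191) was no longer called without D0 replicate 2 (-2.01) or day 2 replicate 3 (-1.68), nor with a pseudocount of 0.1 or 10. On day 4 TNNT2 was 396, 416 and 392, higher than on day 2 by 5.74 ± 0.78 (adjusted p = 1.35e-06). In CD43- cells it was 408, 632 and 1224 on day 6, 432, 848 and 588 on day 9, 600, 751 and 418 on day 12 and 508, 480 and 445 on day 16. These 4 populations overlapped each other in the order of their means, and the day 16 change from day 6 was -0.51 ± 0.78 (adjusted p = 0.601). CD43+ samples lay between 0 and 16, except 75 in day 9 replicate 3. That library also had the highest ACTC1 (202) and HAND2 (82) of its population and the highest mesenchymal and matrix sum (22153), and the part of those cells in its values was not tested. The excess in CD43- cells was 6.12, 5.06, 5.38 and 6.30 on the 4 days (SE 0.78), with adjusted p of 2.54e-06 or less.

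Cardiac troponin I, TNNI3 (ENSG00000129991, chr19:55151767-55157773), the inhibitory subunit of the same complex in the adult heart, ran the other way. It was 342 in undifferentiated cells and 446, 474 and 342 in D0 EBs, fell to 57, 42 and 48 on day 2 (-3.07 ± 0.51, adjusted p = 2.64e-05) and was 178, 104 and 126 on day 4. In CD43- cells it was 6, 16 and 27 on day 6, 2, 12 and 2 on day 9, 4, 12 and 12 on day 12 and 108, 120 and 96 on day 16. In CD43+ cells it was 131, 117 and 126 on day 6, 466, 420 and 409 on day 9, 128, 344 and 249 on day 12 and 387, 700 and 194 on day 16. Every CD43- sample was below every CD43+ sample of its day. The differences (CD43- minus CD43+) were -3.07, -6.46, -4.56 and -1.79 with an SE of 0.51. The first 3 had adjusted p of 1.52e-05 or less, and the last was under the 4-fold threshold (adjusted p = 0.00306) unless day 16 CD43+ replicate 3 was left out (-2.26). TNNI3 rose in CD43- cells from day 12 to day 16 by 3.52 ± 0.51 (adjusted p = 3.71e-06), and the difference between the fractions narrowed over the same days by 2.77 ± 0.72 (adjusted p = 0.00861). It was the 1 member called in that test, beside 2.17% of all genes, and none was called with a pseudocount of 10. The blood gene sum of the CD43- libraries was 164 to 7218 on day 12 and 6803 to 21037 on day 16, as given above. Its genes went both ways in these cells. MPO averaged 1649 and then 8822, LYZ 386 and then 3341, HBE1 35 and then 1248, and GATA1 4.67 and then 150. PTPRC averaged 191 and then 27.3, CD14 200 and then 4.33, SPI1 231 and then 144, and SPN 159 and then 178. The part of blood cells in the rise of TNNI3 was not tested.

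Myosin light chain 7, MYL7 (ENSG00000106631, chr7:44138864-44141332), the atrial regulatory light chain that is used throughout the early heart, followed ACTC1. It was 4 in undifferentiated cells, 18, 12 and 6 in D0 EBs, 95, 96 and 140 on day 2 and 1050, 1108 and 851 on day 4. Both steps were called, at 3.19 ± 0.59 each, with adjusted p of 9.60e-05 and 9.17e-05. In CD43- cells it was 315, 506 and 722 on day 6, 141, 210 and 174 on day 9, 71, 25 and 13 on day 12 and 48, 88 and 76 on day 16. The fall from day 9 to day 12 was -2.55 ± 0.59 (adjusted p = 0.0013), and it was not called when only the populations compared were fitted. CD43+ cells held 12, 24 and 46 on day 6, 2, 4 and 4 on day 9, 1, 0 and 0 on day 12 and 6, 3 and 0 on day 16. No CD43- sample overlapped the CD43+ samples of its day, and the differences were 4.30, 5.36, 4.56 and 4.52 (SE 0.59), with adjusted p of 9.05e-07 or less.

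MYH6 (ENSG00000197616, chr14:23381990-23408277) and MYH7 (ENSG00000092054, chr14:23412738-23435718), the motor proteins of the cardiac thick filament, had low values in the sorted cells, and the fractions overlapped on all 4 days for MYH6 and on days 6 and 12 for MYH7. MYH6 was 6 in undifferentiated cells, 8, 284 and 214 in D0 EBs, 300, 221 and 18 on day 2 and 305, 352 and 367 on day 4. Its highest population was thus unsorted day 4 cells. In CD43- cells MYH6 was 32, 60 and 32 on day 6, 22, 52 and 76 on day 9, 0, 1 and 8 on day 12 and 7, 26 and 16 on day 16, and in CD43+ cells it was 56, 48 and 65, then 48, 42 and 24, then 0, 6 and 0, and finally 8, 10 and 8. The differences between the fractions were -0.49, 0.28, 0.45 and 0.68 on the 4 days (SE 1.02, adjusted p 0.569 or more). The sign turned on day 9 without CD43- replicate 3 (-0.10) or CD43+ replicate 3 (-0.01), and on day 12 without CD43- replicate 3 (-0.44) or CD43+ replicate 1 or 3 (-0.01 each), so no direction is given for MYH6.

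MYH7 was 0 in undifferentiated cells, 2, 41 and 22 in D0 EBs, 42, 28 and 0 on day 2 and 30, 47 and 39 on day 4. CD43- cells held 34, 58 and 17 on day 6, 28, 12 and 36 on day 9, 0, 0 and 1 on day 12 and 6, 10 and 12 on day 16, and CD43+ cells held 65, 86 and 29, then 8, 5 and 8, then 0, 2 and 0, and finally 0, 0 and 4. The differences were -0.74, 1.61, -0.19 and 2.55 (SE 0.98), and that of day 12 turned to 0.33 without CD43+ replicate 2. The day 16 value was called (adjusted p = 0.0242), and the call was lost without CD43- replicate 2 (2.48) or 3 (2.36) or CD43+ replicate 1 or 2 (2.16 each), or with a pseudocount of 10. The 2 highest MYH7 values of the series, 86 and 65, were in CD43+ cells of day 6.

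Both myosin heavy chains fell in CD43- cells from day 9 to day 12 and were called higher again on day 16. The fall was -4.12 ± 1.02 for MYH6 (adjusted p = 0.00243) and -4.26 ± 0.98 for MYH7 (adjusted p = 0.00135), and the later rise was 2.56 ± 1.02 (adjusted p = 0.0417) and 2.99 ± 0.98 (adjusted p = 0.0148). The MYH6 fall was not called when only those populations were fitted, nor was the MYH6 rise, and the rise also lost its call without day 12 CD43- replicate 1 (1.86) or 2 (2.36), or day 16 CD43- replicate 2 (2.15) or 3 (2.49). In the day 12 CD43+ cells both genes were also at 6 or below in every sample. MYH6 also fell by 3.08 ± 1.02 from day 4 to the CD43- cells of day 6 (adjusted p = 0.0154), which was not called with a pseudocount of 0.1.

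MYH6 and MYH7 spread together among replicates of the early samples. D0 replicate 1 and day 2 replicate 3 held the lowest values of both genes in their populations, and these 2 libraries were singled out after the values were seen. Of the 19788 genes tested, 35 were more than 3 log2 units below the mean of the other 2 replicates in D0 replicate 1 and 42 in day 2 replicate 3, and 3 genes were low in both libraries, namely MYH6, MYH7 and AC129492.1.

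**Figure D2:**
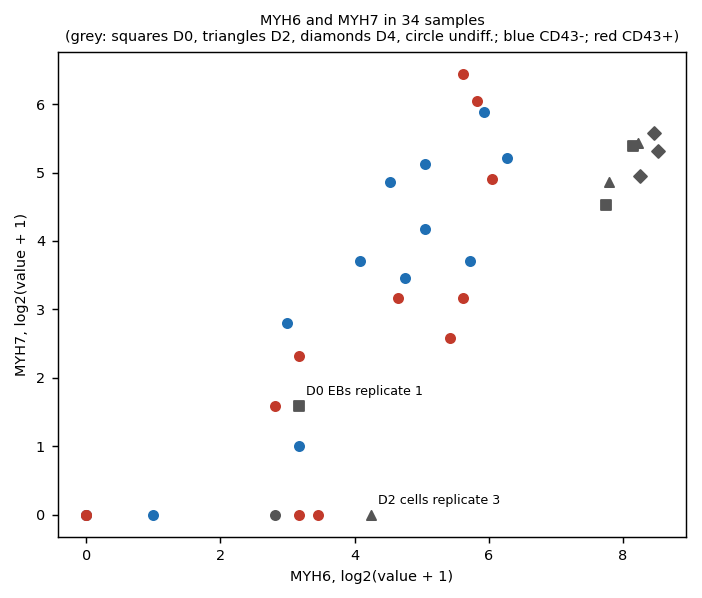
MYH7 against MYH6, both as log2(value + 1), in each of the 34 samples, with D0 replicate 1 and day 2 replicate 3 named. Grey squares are D0 EBs, triangles day 2, diamonds day 4 and the grey circle undifferentiated cells, blue is CD43- and red CD43+; the blue and red points overlap in their ranges, and 3 day 12 samples coincide at the origin.

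NKX2-5 (ENSG00000183072, chr5:173232109-173235357), an early homeobox factor of heart progenitors, had its highest values on day 2. It was 0 in undifferentiated cells, 3, 1 and 0 in D0 EBs and 193, 246 and 220 on day 2, a rise of 6.78 ± 0.64 (adjusted p = 3.28e-09). It was 116, 190 and 69 on day 4. The CD43- cells held 112, 204 and 46 on day 6, 64, 44 and 64 on day 9, 6, 10 and 42 on day 12 and 19, 34 and 26 on day 16, and the change from day 6 to day 16, -1.95 ± 0.64, was under 4-fold (adjusted p = 0.0118). The CD43+ cells held 22, 32 and 33 on day 6, 2, 3 and 1 on day 9, 0, 0 and 2 on day 12 and 8, 6 and 1 on day 16. The groups did not overlap on any day. The CD43- excess was 1.80 ± 0.64 on day 6, under 4-fold (adjusted p = 0.0213), and was called on days 9, 12 and 16 at 4.32, 3.37 and 2.41 (SE 0.64, adjusted p 0.00173 or less). Single libraries set 2 of these calls, since day 6 was called without CD43- replicate 3 (2.37), and day 16 was not called without CD43+ replicate 3 (1.75).

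TBX5 (ENSG00000089225, chr12:114353931-114408442), a T-box factor of the heart and forelimb, was low in every population. It was 2 in undifferentiated cells, 0, 6 and 4 in D0 EBs, 0, 2 and 0 on day 2 and 2, 3 and 8 on day 4. The CD43- cells held 6, 12 and 22 on day 6, 16, 32 and 12 on day 9, 20, 6 and 20 on day 12 and 8, 34 and 42 on day 16, and these 4 populations overlapped. In CD43+ cells TBX5 was 8, 2 and 2 on day 6 and 2, 0 and 0 on day 9, and was listed at 0 in all 6 samples of days 12 and 16. The day 6 difference, 1.56 ± 0.71, did not pass (adjusted p = 0.0683), but did so without CD43+ replicate 1 (2.09). The day 9 difference was called at 3.75 ± 0.71 (adjusted p = 4.46e-05). Days 12 and 16 were also called (adjusted p = 2.65e-05 and 2.49e-06). Apart from the medians of the 9 genes, no fold is given for them, because one side was listed at 0.

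HAND2 (ENSG00000164107, chr4:173524969-173530229), a basic helix-loop-helix factor of the heart's right ventricle and also of limb, neural crest and stromal cells, had its highest values in the late CD43- cells. It was 6 in undifferentiated cells, 0, 1 and 0 in D0 EBs, 20, 20 and 8 on day 2 and 2288, 1732 and 2865 on day 4. The rise to day 2 was 3.65 ± 0.50 (adjusted p = 1.84e-06), not called with a pseudocount of 10, and that to day 4 was 7.15 ± 0.50 (adjusted p = 9.70e-12). The CD43- cells held 1178, 1454 and 2599 on day 6, 1817, 2745 and 3062 on day 9, 4077, 4037 and 3755 on day 12 and 4543, 3456 and 4077 on day 16. Every sample of days 12 and 16 was above every sample of days 6 and 9, and the change from day 6 to day 16 was 1.28 ± 0.50 (adjusted p = 0.0326), under 4-fold. The CD43+ cells held 162, 324 and 354 on day 6, 13, 10 and 82 on day 9, 41, 44 and 48 on day 12 and 62, 30 and 25 on day 16. The CD43- excess was 2.63 on day 6 and 6.73, 6.45 and 6.76 on the later days (SE 0.50, adjusted p 9.30e-05 or less).

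The growth of the HAND2 difference between days 6 and 12 was itself called, at 3.82 ± 0.71 (adjusted p = 8.36e-05). It was the 1 member called in that test, beside 10% of all genes, and 3 were called with a pseudocount of 0.1. Both fractions moved between these days, since HAND2 was 1178 to 2599 and then 3755 to 4077 in CD43- cells and 162 to 354 and then 41 to 48 in CD43+ cells. The mesenchymal and matrix sum in CD43+ cells was 60161 to 156258 on day 6 and 21151 to 45886 on day 12, but its genes went both ways. COL1A1 averaged 24889 and then 5236, and COL1A2 58647 and then 6297. COL3A1 averaged 11176 and then 17691, LUM 189 and then 330, DCN 16.7 and then 240, and POSTN 60.7 and then 202. The other genes of that list had lower means on day 12. The part of these genes in the change was not tested. HAND2-AS1, the antisense neighbour, was 167, 206 and 404 in CD43- cells of day 6 and 2484, 1972 and 2368 on day 16, against 20, 32 and 54 and then 12, 12 and 16 in CD43+ cells.

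**Figure D3:**
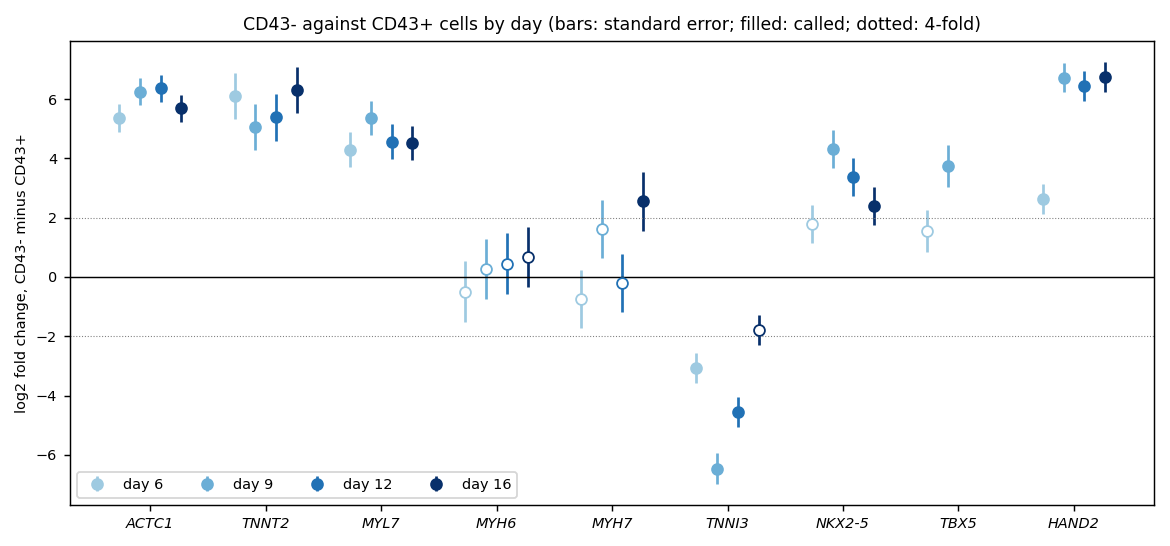
Log2 fold change (CD43- minus CD43+, on log2(value + 1)) of each gene on days 6, 9, 12 and 16, with bars of 1 SE from the fit over 33 samples; filled points were called and dotted lines mark 4-fold. HAND2 rises from 2.63 on day 6 to 6.45 or more, MYH6 stays within 1 SE of 0, and TNNI3 is below 0 on each day; TBX5 has no point on days 12 and 16, when its CD43+ samples were all listed at 0.

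Seen by time, different genes were called at different steps. From D0 to day 2, NKX2-5, HAND2 and MYL7 were called higher and TNNI3 and TNNT2 lower, 3 and 2 of 9 beside 4.40% and 3.48% of all genes. From day 2 to day 4, HAND2, TNNT2, ACTC1 and MYL7 were called higher, 4 of 9 beside 4.97%, and none was called lower. Between day 4 and the CD43- cells of day 6, MYH6 and TNNI3 were called lower, 2 of 9 beside 2.77%. TNNI3 fell there by 3.16 ± 0.51 (adjusted p = 1.62e-05), while the CD43+ cells of day 6 held the day 4 level (-0.09 ± 0.51, adjusted p = 0.903). In the other direction, 5 genes were called lower in CD43+ cells of day 6 than on day 4, beside 7.73%, namely ACTC1 (-5.94), MYL7 (-5.33), TNNT2 (-5.36), HAND2 (-3.08) and MYH6 (-2.58). The MYH6 call of that comparison was lost without any 1 of its 6 libraries (-2.69 to -2.48). Day 4 cells were unsorted, so these steps compare a mixture with a sorted part of it.

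Within CD43- cells, limma called 0 of the 9 genes between days 6 and 9, beside 1.75% of all genes. ACTC1, MYL7 and TNNI3 changed there by -1.45, -1.49 and -1.61, under 4-fold, with adjusted p of 0.0578, 0.131 and 0.0551. From day 9 to day 12, MYL7, MYH7 and MYH6 were called lower, 3 of 9 beside 2.80%, and this count was 1 when only those populations were fitted and 5 without day 9 replicate 2. All genes called in either direction went from 1450 to 801 in that smaller fit. From day 12 to day 16, TNNI3, MYH7 and MYH6 were called higher, 3 of 9 beside 4.46%. This count was 1 with a pseudocount of 10, where all genes called in either direction went from 2065 to 707. Over the whole span from day 6 to day 16, ACTC1 and MYL7 were called lower, 2 of 9 beside 6.26%, and TNNI3 higher, 1 of 9 beside 6.91%. MYL7 fell by 2.81 ± 0.59 over that span (adjusted p = 0.000213) and TNNI3 rose by 2.86 ± 0.51 (adjusted p = 3.18e-05). In CD43+ cells over the same days 7 of the 9 were called lower, beside 10.7%, and the others were TNNI3 and TNNT2. This count was 3 with a pseudocount of 10, and the MYH6 call (-2.56) and the TBX5 call each depended on single libraries, the former on CD43+ replicates 1, 2 and 3 of day 6 and 1 and 3 of day 16 (-2.67 to -2.46 without them) and the latter on day 6 replicate 1.

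How alike the genes were is given as Pearson's r of log2(value + 1) over the 34 samples, which include 3 replicates of each population and so are not independent points. Among the members ACTC1 and MYL7 were most alike (r = 0.935), followed by MYL7 and NKX2-5 (0.852) and MYH6 and MYH7 (0.828), which share reads. TNNI3 had a negative r with 7 of the other 8, down to -0.655 with HAND2. For MYH6 and HAND2 r was -0.045. Over all genes tested, the most similar to TNNT2 were IP6K3 (0.925) and COL11A1 (0.923), to ACTC1 they were DOK4 (0.953) and SYTL5 (0.952), and to MYL7 they were DOK4 (0.955) and ACTC1. NKX2-5 was closest to GATA3-AS1 (0.932) and RBM24 (0.904), and TBX5 to VASN (0.888) and FSIP2 (0.887). HAND2 was closest to HAND2-AS1 (0.959), with which it overlaps, and LUM (0.956), the gene of the matrix proteoglycan lumican. TNNI3 was closest to TMEM143 (0.936) and MRPL57 (0.907), MYH6 to MED16 (0.860) and MYH7, and MYH7 to MYH6 and VWCE (0.774).

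Other sarcomere genes, the first of the lists made to place the 9 genes, were divided between the fractions. Of 18 tested, 6, 6, 4 and 4 were placed higher in CD43- cells on days 6, 9, 12 and 16 and 1, 3, 2 and 2 lower, where 7.85%, 12.8%, 14.4% and 13.6% of all genes were called higher and 4.69%, 8.65%, 11.8% and 12.2% lower, with a median log2 fold change of 0.32, 0.08, -0.70 and 0.27 beside the medians of all genes given above. TNNI1, the slow skeletal troponin I that the fetal heart uses before TNNI3, was 382, 412 and 1455 in CD43- cells of day 6 and 2116, 2218 and 1909 on day 16, and 19, 40 and 82 and then 20, 26 and 11 in CD43+ cells. Its difference was called at 6.13, 7.19 and 6.78 on days 9, 12 and 16. The 2 troponin I genes were thus placed in opposite fractions. MYL3, a ventricular light chain, was 41, 86 and 141 against 1, 0 and 1 on day 6 (5.66 ± 0.73, adjusted p = 3.50e-07), and NEBL, a Z-disc protein, was called on days 6, 9 and 12 at 4.11, 6.13 and 5.58. NEBL averaged 373 in D0 EBs, and 136, 274 and 442 in the CD43- cells of those days. MYBPC3, cardiac myosin binding protein C, was called lower in CD43- cells on day 16 (1, 0 and 0 against 36, 24 and 58). ACTN2, the sarcomeric alpha-actinin, named after its values were seen, averaged 40, 42, 21.3 and 38 in CD43- cells and 63.7, 46.7, 5.67 and 13.7 in CD43+ cells. MYL2 and CSRP3 were not analysed here, and SMPX did not pass the filter.

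**Figure D4:**
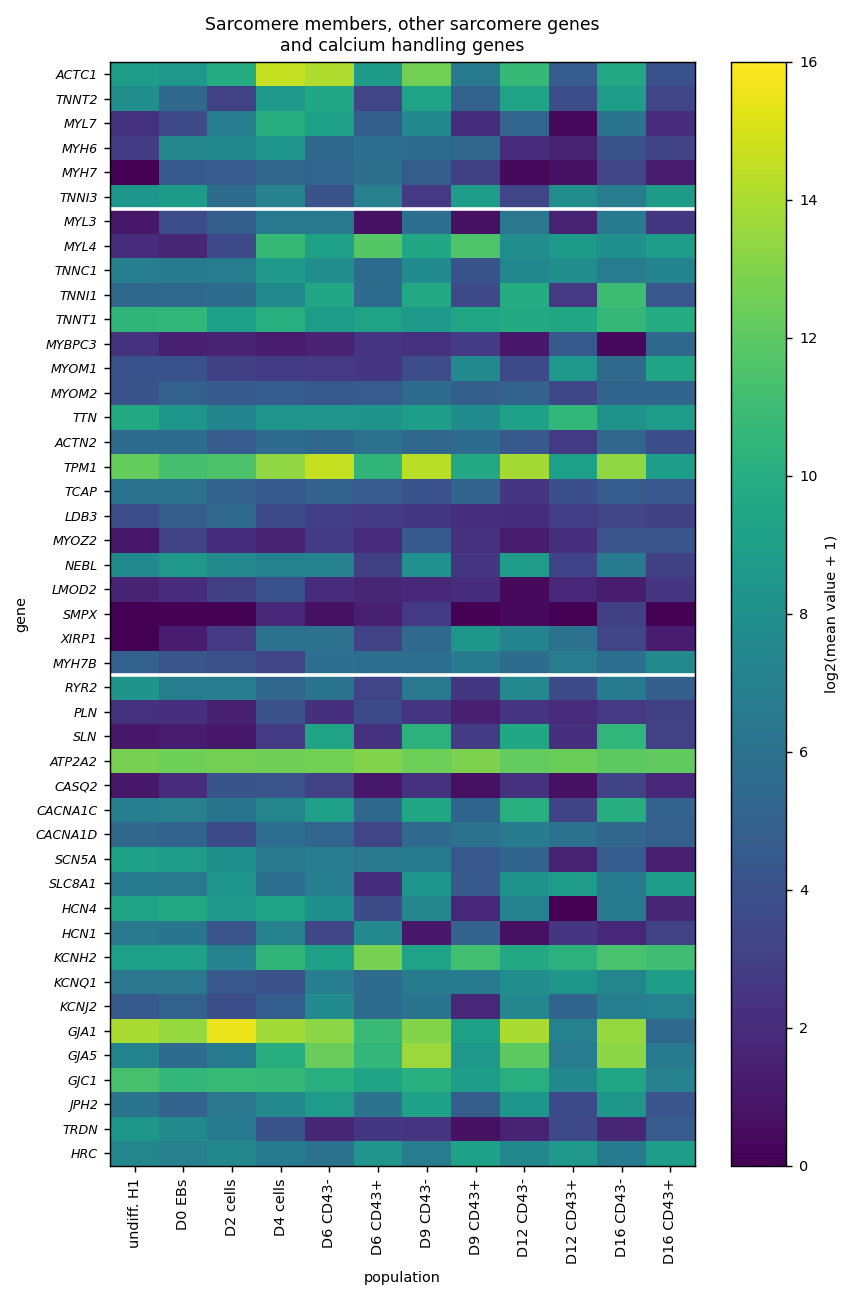
Mean value, as log2(mean + 1), of the 6 sarcomere members (top), 19 other sarcomere genes (middle) and 20 calcium handling, channel and junction genes (bottom) in the 12 populations. Colours are to be compared along a row, since values are not per gene length. TNNI1 and SLN are bright in the CD43- columns. TNNI3 is brighter in the CD43+ than in the CD43- column of each day, and is also bright in undifferentiated cells and D0 EBs.

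Of 20 genes of calcium handling, ion channels and cell junctions tested, 10, 10, 10 and 8 were called higher in CD43- cells on the 4 days, beside 7.85%, 12.8%, 14.4% and 13.6% of all genes, and 3, 2, 0 and 3 lower, beside 4.69%, 8.65%, 11.8% and 12.2%, with medians of 1.80, 1.92, 1.78 and 0.88. SLN, sarcolipin, a regulator of the calcium pump in atrial and skeletal muscle, was 387, 384 and 1210 in CD43- cells of day 6 and 1588, 1502 and 1428 on day 16, against 6, 2 and 4 and then 8, 12 and 4 in CD43+ cells. HCN4, the pacemaker channel, was 146, 222 and 424 in CD43- cells of day 6 and 88, 124 and 78 on day 16, and its day 9 difference was 5.85 ± 0.49. It was higher before the sort, at 641 in undifferentiated cells, 996, 828 and 670 in D0 EBs and 644, 612 and 576 on day 4. GJA1, the widely used connexin 43, had differences of 6.93 and 7.96 on days 12 and 16. SLC8A1, the sodium-calcium exchanger, was called higher in CD43- cells on day 6 (4.52 ± 0.46) and lower on day 16 (-2.38 ± 0.46). PLN and CASQ2, which regulate and store sarcoplasmic calcium in heart muscle and were named after their values were seen, never exceeded 8 and 14 in a CD43- sample. They were low throughout, with highest values of 17 and 19 in the whole series. Other genes of the list, also named after their values were seen, went with the CD43- fraction. CACNA1C was 424 to 1448 in CD43- samples and 50 or less in CD43+ samples, and JPH2 was 316 to 738 and 90 or less.

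Cardiac hormone and metabolism genes were called in both directions. Of 6 tested, 1, 3, 2 and 2 were called higher and 2, 1, 1 and 2 lower on the 4 days, to be read beside the same shares of all genes, with medians of 0.75, 1.69, -0.13 and -0.05. NPPB, the B-type natriuretic peptide, was 102, 233 and 75 in CD43- cells of day 6 and 237, 325 and 276 on day 9, and 4 or below in every CD43+ sample. CRYAB, a small heat shock protein, was called higher on day 12 (6.11 ± 0.65). CKM, muscle creatine kinase, was on the other side, with 5 or less in the CD43- samples of days 6, 12 and 16 and 47 or more in every CD43+ sample. NPPA, MB and COX6A2 were not analysed here.

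Factors of cardiac mesoderm and heart development were mostly higher in CD43- cells when called. Of 29 tested, 7, 13, 15 and 13 were called higher and 0, 3, 1 and 3 lower on the 4 days, beside the same shares of all genes, with medians of 0.38, 1.54, 2.01 and 1.69. ISL1, a factor of second heart field progenitors, was 176, 304 and 163 in CD43- cells of day 6 and 83, 34 and 57 on day 16, and 10 or less in every CD43+ sample. HAND1, the relative of HAND2, had differences of 6.55, 6.98 and 6.87 on days 9, 12 and 16. TBX2, a T-box repressor, was called on day 6 at 5.52 ± 0.71. GATA6 was 1164, 1226 and 2155 in the CD43- cells and 1009, 1294 and 1439 in the CD43+ cells of day 6, where the samples overlapped, and by day 12 it was 1532, 1249 and 2647 against 10, 13 and 25 (6.76 ± 0.42). NR2F1, an orphan nuclear receptor of atrial cells, was called on day 16 at 6.61 ± 0.66. MYOCD, the cofactor of serum response factor, named after its values were seen, averaged 684 on day 4 and 25.3 to 56 in CD43- cells, and was 32 or less in every CD43+ sample. MEF2C and MEF2A, also named after their values were seen, had their highest values in CD43+ samples. These were 8682 and 4788, against at most 2050 and 2578 in CD43- samples.

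Among genes of other tissues that the CD43- fraction could hold, the mesenchymal, smooth muscle and epicardial lists gave calls higher in CD43- cells on every day, the endothelial list from day 9 on, and the skeletal muscle list gave calls in both directions. The shares of all genes called, given above, stand beside each count. Mesenchymal and matrix genes gave 7, 11, 11 and 11 calls of 11 higher in CD43- cells and none lower, led by POSTN (7.73 on day 6), DCN (7.79 on day 9) and PRRX1 (7.65 on day 12). Smooth muscle genes gave 5, 8, 11 and 10 of 13 higher and 0, 1, 0 and 0 lower, with ACTG2 at 5.04 on day 6, ACTA2 at 6.42 on day 9 and LMOD1 at 6.27 on day 16. Epicardial and mesothelial genes gave 6, 6, 5 and 5 of 9 higher and 0, 2, 1 and 1 lower, with TCF21 at 6.25 on day 6, UPK3B at 6.73 on day 9, BNC1 at 8.25 on day 12 and KRT19 at 6.08 on day 16. Endocardial and endothelial genes gave 0, 6, 5 and 5 of 10 higher and none lower, with EMCN at 3.58 on day 9, TEK at 5.60 and KDR at 5.54 on day 12, and CDH5 at 4.97 and NPR3 at 6.10 on day 16. Skeletal muscle genes gave 1, 3, 1 and 0 of 11 higher and 0, 2, 2 and 2 lower, among them ACTA1 (2.41 on day 6), TNNT3 (4.41 on day 12), TNNI2 (-4.92 on day 12) and MYF6 (-3.87 on day 16). MYOD1, MYF5, MYH1, MYH8 and MYL1 were not analysed here. Blood genes gave 6, 7, 8 and 8 of 8 lower and none higher, with GATA1 at -8.38 on day 6, MPO at -9.33 on day 9, and PTPRC at -8.87 and CD14 at -7.81 on day 16. These counts include SPN and PTPRC. The direction of SPN on each day, and of PTPRC on day 16, was set by the sort. HBE1 on day 6 and LYZ on day 12 reached the table maximum of 90700 in all 3 CD43+ libraries, and no fold is given for them. The part of smooth muscle, mesothelial or endothelial cells in the values of ACTC1, TNNT2, MYL7 and HAND2 was not tested.

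A value of 100 or more in at least 1 of the 12 CD43- samples was reached by 6 of the 9 genes, by 9 of 19 other sarcomere genes, by 16 of 20 calcium handling, channel and junction genes and by 21 of 29 regulators, beside 67.2% of all genes in the table. The 3 members that never reached it were TBX5, MYH6 and MYH7, and the list genes that never did included PLN, CASQ2, TRDN, ACTN2, MYBPC3, MYOM1, MYOM2, TCAP, LDB3, SMYD1 and IRX4. It was reached by 12 of 13 smooth muscle genes, MYH11 being the exception, by all 11 mesenchymal and matrix genes and by 2 of 11 skeletal muscle genes.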

How the data were processed

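RNA-seq of 34 samples was analysed from 1 table of 20255 genes. The authors aligned reads with Bowtie2 and estimated gene levels with RSEM on Ensembl annotation, normalised them for GC content with EDASeq, and deposited whole-number scores. The submitters' processing notes also list bcl2fastq, STAR 2.7 and hg38. The deposited table also gives the GC percent of each gene, which was not used in a fit. The sequencing was split between 2 providers, and the labels do not tie samples to them, so provider and group cannot be told apart. Depth is unknown, so no counting interval is given. Fits used limma 3.58.1 in R 4.3.3 on log2(score + 1) over 33 samples and the 19788 genes with at least 10 in at least 3 samples, with 11 populations, an intensity trend and Benjamini-Hochberg adjustment, and were tested on simulated data. The members and lists were chosen with earlier results of these data known. List genes named were the 2 called genes of largest change per list and CD43 comparison, and others are marked. Same-numbered CD43- and CD43+ samples deviated together weakly on day 6 (r of 0.109 to 0.199, every pair above 0.1) and not on every pair of later days (-0.015 to 0.108). Pairing was taken to hold on day 6, although these ranges nearly meet. The reported values of day 6, as of all days, come from the fit without pairing, and the replicate block was an alternative. Alternatives tried were other pseudocounts, filters and scaling, a replicate block, smaller fits and leaving out each library.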

Additional observations from a re-analysis of the deposited data

Results flagged for a closer look

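For 2 genes the difference between the sorted fractions changed with time, by a test of the change itself. The CD43- excess of HAND2 was larger on day 12 than on day 6 by 3.82 log2 units (limma, adjusted p = 8.36e-05), where HAND2 was 1178 to 2599 on day 6 and 3755 to 4077 on day 12 in CD43- cells and 162 to 354 and then 41 to 48 in CD43+ cells. It was 3.58 to 4.17 when single libraries were left out. The CD43- deficit of TNNI3 was smaller on day 16 than on day 12 by 2.77 log2 units (adjusted p = 0.00861), and this was 2.30 to 3.22 when single libraries were left out. It was not called with a pseudocount of 10 (1.91).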

How the results depend on the processing

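Of 211 counts of called members recomputed under alternatives, 196 stayed within 1.5 times the reported count, and of 946 recomputed single-gene values, 889 kept their direction and side of the threshold, 48 lost and 3 gained a call and 6 reversed. With a pseudocount of 10 the members called were 4 on day 12 and 4 on day 16 between the fractions, 3 from D0 to day 2, 1 in CD43- cells from day 12 to 16, 3 in CD43+ cells from day 6 to 16 and 0 for the change between days 12 and 16 in how the fractions differ. Low values weigh less on that scale by construction. All genes called in these 6 comparisons fell from 5176, 5101, 1559, 2065, 4205 and 995 to 3528, 3553, 843, 707, 2764 and 473. With 0.1 the members called were 1 from day 4 to day 6 CD43- cells and 3 for the change between days 6 and 12 in how the fractions differ. All genes called there went from 1526 to 1817 and from 3651 to 3452. Fitting only the populations compared gave 1 member for CD43- cells from day 9 to 12, where fewer samples estimate the spread. Leaving out 1 library gave 0 to 1 in CD43- cells from day 6 to 9, 3 to 5 from day 9 to 12, and 1 to 2 for the change between days 6 and 12. It moved MYH6 between -0.10 and 0.77 on day 9 and -0.44 and 1.39 on day 12, and MYH7 between -0.53 and 0.33 on day 12. With the replicate number as a block the CD43 comparisons of days 6, 9, 12 and 16 called 5, 7, 7 and 7 members, and the block changed no member count by over 1.5 times. All genes called with the block over 33 samples were 2482, 4251, 5174 and 5104 of 19788. Scaling by median of ratios brought the day 9 median log2 fold change of all genes from -0.24 to -0.04 and the day 6 median from -0.14 to 0, and turned no direction of a member. Depth could not be assessed.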
